A study of Homo sapiens with 26 samples.

Results

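HCT116 cells are an established line from a human colon carcinoma. The parental line has working p53, and a derivative without it is widely used as its isogenic partner. The comparison described here takes 8 of the study's 26 one-colour Illumina bead arrays, chosen by their titles. They are the 4 arrays of untreated HCT116 cells labelled p53KO, replicates 7 to 10, and the 4 arrays of untreated HCT116 cells labelled wild type (WT), replicates 7 to 10. All of these cells grew in McCoy medium without leptomycin B, and the labels name no allele, clone or passage. The other 18 arrays are 6 untreated arrays of a first slide series (3 labelled p53KO and 3 labelled WT, replicates 4 to 6), 6 arrays at 20 nM leptomycin B, and 6 arrays at 2 nM leptomycin B that share the slides of the 8. Leptomycin B is an inhibitor of nuclear export, given for 16 h.

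The 4 arrays labelled p53KO lay together on 1 slide and the 4 labelled WT on another, at the same 4 positions, so slide and label cannot be told apart in this comparison. The labels do not say whether replicates were separate cultures. The p-values then measure only how far arrays of the same group spread, estimated over all 26 arrays, and that spread may be technical. The transcript encoding p53 was not analysed here. The label was therefore checked by the targets of p53, and these went against it, as given below. Groups are for this reason called by their labels throughout, as p53KO-labelled and WT-labelled arrays.

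p53 is a transcription factor that binds response elements in the promoters and first introns of its targets. In resting cells it is kept low by the ubiquitin ligase MDM2, itself a target, and basal activity is enough to hold up part of the target set. Genes of the G2 and M phases are lowered indirectly, through p21 (the product of CDKN1A), which leads to repression by the DREAM complex at promoter elements that include the CHR element. Expression arrays do not read the activity of the p53 protein, and the levels of its targets are a usual readout of its function.

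Stretches of 3 promoters are shown because they hold the CHR core, or a match to the p53 half-site, in genes whose levels differed between the labels. A half-site is only a part of a p53 response element. Sequences are from RefSeq, build GRCh38.p14, each running from 110 bases before the transcription start to 10 after it, on the gene's strand. Capitals mark the CHR core TTTGAA in CDCA3 (chr12:6851277-6851396, minus strand) and CDCA8 (chr1:37692406-37692525, plus strand), and a match to the p53 half-site in RPS27L (chr15:63157468-63157587, minus strand).
CDCA3: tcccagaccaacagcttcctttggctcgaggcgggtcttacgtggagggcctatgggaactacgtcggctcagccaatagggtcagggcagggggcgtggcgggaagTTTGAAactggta
CDCA8: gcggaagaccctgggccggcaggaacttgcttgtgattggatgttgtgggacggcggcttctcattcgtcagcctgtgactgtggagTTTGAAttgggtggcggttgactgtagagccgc
RPS27L: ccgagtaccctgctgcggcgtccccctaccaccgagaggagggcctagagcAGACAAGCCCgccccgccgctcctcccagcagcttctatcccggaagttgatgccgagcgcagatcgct
The core began 3 bases before the start in CDCA3 and 23 before it in CDCA8, and the half-site began 59 bases before the start in RPS27L. In windows from 250 bases before to 50 after the start, TTTGAA stood on either strand of 23 of 34 G2/M promoters matched to the table (67.6%), against 10.4% of the 10500 promoters of genes tested. The half-site stood in 7 of 76 promoters of p53 targets tested (9.21%), against 5.22% of promoters of genes tested. Among p53 targets called higher it stood in 2 of 12 promoters (16.7%), and that of CDKN1A had none. For G2/M genes called lower, TTTGAA stood in 3 of 5 promoters (60%) and the half-site in 2 of 5 (40%). The half-site stood in 3 of 34 promoters of G2/M genes tested (8.82%). TTTGAA stood in 9 of 76 promoters of p53 targets tested (11.8%), and in 0 of 12 of those called higher. The half-site was thus not confined to p53 targets, and sets of 5 and 12 promoters are too small to compare its shares. A match is a description of these letters and not a measured site.

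Intensities are given as deposited, in arbitrary units with background already subtracted, and the median intensity over all probes and arrays was 10.2. Differences are p53KO-labelled minus WT-labelled on the log2 scale, after intensities under 10 were set to 10, with the SE of a limma model over all 26 arrays. The SE of a gene thus also carries its spread among treated and first-series arrays. It can be wider or narrower than the spread among the 8 arrays alone would give, and a fit on those 8 called fewer genes in all, 884. A gene was called at a Benjamini-Hochberg adjusted p under 0.05. Of 12951 genes tested, 565 were called higher (4.36%) and 621 lower (4.79%) in p53KO-labelled arrays, 1186 in all (9.16%). Among these calls 168 exceeded 2-fold, 111 higher and 57 lower. The median difference over all genes was 0. With the replicate number as a block, 10.2% of all genes were called higher and 11.4% lower, and counts with the block are read against these shares. Without replicate 10 of both labels the shares were 5.84% and 6.08%, and counts without it are read against those.

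CDKN1A, which encodes the cyclin-dependent kinase inhibitor p21 and is the classic p53 target, read 4031, 4542, 4276 and 4672 in p53KO-labelled replicates 7 to 10, against 615, 636, 665 and 1016 in WT-labelled replicates 7 to 10. Every p53KO-labelled array was above every WT-labelled one, and the arms were far apart. The difference was 2.61 ± 0.32 (log2, SE), with an adjusted p of 1.84e-05 in limma. By this gene the p53KO-labelled arm is the one that looks p53-functional, which is the reverse of its label. MDM2 was dim. Its intensity was 16.1, 14.2, 15.2 and 12.3 in p53KO-labelled arrays, against 10.7, 9.27, 12.4 and 11.5 in WT-labelled arrays. These arms overlapped, close to the floor of 10, and the difference of 0.37 ± 0.27 did not pass the test (adjusted p = 0.512 in limma).

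Of 106 p53 targets listed, 97 were on the array and 90 passed the filter on low values. Of the 90, 16 were called higher and 2 lower in p53KO-labelled arrays (20%, against 9.16% of all genes tested), and 72 did not pass the test. The median difference of the 90 was 0.13, with 62 positive and 27 negative, against a median of 0 over all genes. The arms did not overlap for 23 members that were higher and 3 that were lower, against 6.23% and 7.45% of all genes tested. Averaged over the 90 members, the log2 level was 6.62, 6.61, 6.60 and 6.75 in p53KO-labelled arrays, against 6.37, 6.34, 6.34 and 6.50 in WT-labelled arrays. The lowest p53KO-labelled array was thus above the highest WT-labelled one.

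**Figure D1:**
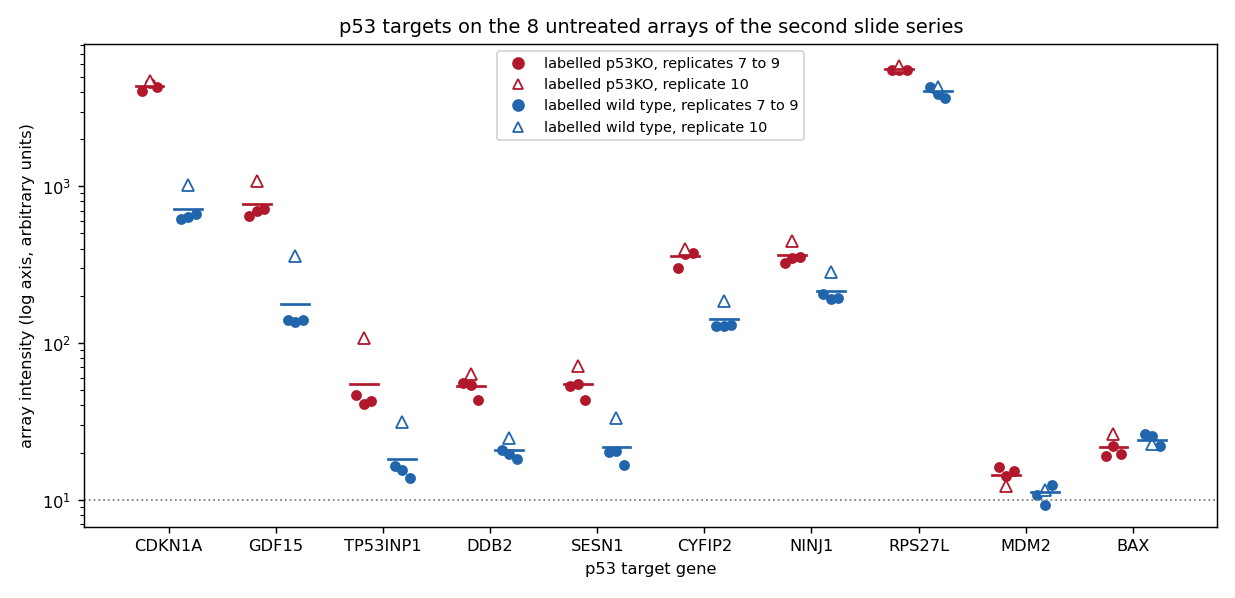
Intensity of 10 p53 targets (log axis, arbitrary units) on the 4 p53KO-labelled arrays (red, left of each pair) and the 4 WT-labelled arrays (blue, right), with replicate 10 as open triangles, the mean of log2 values as a bar and the floor of 10 dotted. From CDKN1A to RPS27L every red point lies above every blue point, while the arms of MDM2 and BAX overlap.

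GDF15 followed CDKN1A in size among the called targets. This stress-induced cytokine read 645, 692, 716 and 1081 in p53KO-labelled arrays, against 140, 136, 140 and 361 in WT-labelled arrays. Replicate 10 was the highest of both arms, and the arms stayed apart with a difference of 2.12 ± 0.44 (adjusted p = 0.00363 in limma). NINJ1, a membrane protein of plasma membrane rupture, read 322, 351, 356 and 446 in p53KO-labelled arrays, against 204, 191, 194 and 282 in WT-labelled arrays (0.77 ± 0.16, adjusted p = 0.00351 in limma).

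Of 15 targets in metabolism, autophagy and mTORC1 signalling, 2 were called higher, SESN1 and ACAD11, and none lower (13.3%, against 9.16% of all genes), or 5 and 0 with the block. SESN1, a sestrin that restrains mTORC1, read 53.4, 54.5, 43.4 and 71.0 in p53KO-labelled arrays, against 20.1, 20.5, 16.7 and 33.1 in WT-labelled arrays (1.33 ± 0.25, adjusted p = 0.00172 in limma). DDB2, a damage recognition factor of nucleotide excision repair, read 55.4, 53.6, 43.1 and 63.8 in p53KO-labelled arrays, against 20.6, 19.5, 18.3 and 24.9 in WT-labelled arrays (1.37 ± 0.21, adjusted p = 0.000234 in limma). Both genes had arms that did not overlap. Of 8 targets for DNA repair and nucleotide supply, 2 were called higher and none lower (25%, against 9.16% of all genes). These were DDB2 and RRM2B, a subunit of ribonucleotide reductase (0.69 ± 0.18). The call of RRM2B was lost without p53KO-labelled replicate 10 (adjusted p = 0.0533), WT-labelled replicate 7 (0.0673) or WT-labelled replicate 9 (0.0591).

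Among 22 targets linked to apoptosis, 3 were called higher and none lower: TP53INP1, TP53I3 and NINJ1 (13.6%, against 9.16% of all genes). With the block 7 were called higher and 2 lower, against 10.2% and 11.4% of all genes. TP53INP1, a cofactor that promotes p53 activity, had intensities of 46.9, 40.6, 42.7 and 108 in p53KO-labelled arrays, against 16.4, 15.4, 13.8 and 31.1 in WT-labelled arrays (1.59 ± 0.37, adjusted p = 0.0086 in limma). CYFIP2, a member of the WAVE regulatory complex listed with the other targets, read 300, 367, 376 and 396 in p53KO-labelled arrays, against 129, 128, 131 and 185 in WT-labelled arrays (1.34 ± 0.17, adjusted p = 2.38e-05 in limma). The arms of both were apart on every array. The death effector BAX read 19.1, 22.0, 19.6 and 26.2 in p53KO-labelled arrays and 26.4, 25.4, 22.1 and 22.5 in WT-labelled arrays, with overlapping arms (-0.16 ± 0.12, adjusted p = 0.575 in limma). BBC3 (PUMA) differed by -0.10 ± 0.17 and PMAIP1 (NOXA) by -0.24 ± 0.47, and neither passed the test. BAX, BBC3 and PMAIP1 were chosen for their roles after their values were seen.

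RPS27L, a ribosomal protein paralogue that binds MDM2 and whose promoter is shown above, was the brightest called target at 5547, 5527, 5489 and 5861 in p53KO-labelled arrays, against 4324, 3883, 3657 and 4331 in WT-labelled arrays. The arms did not overlap, and the difference was small (0.47 ± 0.11, adjusted p = 0.00765 in limma). Hybridisation of its probe to transcripts of similar paralogues was not tested. Also higher were ACAD11, an acyl-CoA dehydrogenase (1.12 ± 0.21), ASTN2 (0.83 ± 0.16), TM7SF3 (0.65 ± 0.13) and ZMAT3, an RNA-binding zinc finger protein (0.99 ± 0.25). The arms of ZMAT3 overlapped, since replicate 10 was low under both labels (85.5 in the p53KO-labelled and 46.9 in the WT-labelled array), and its call was lost without p53KO-labelled replicate 8 (adjusted p = 0.0555).

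The remaining calls were TP53I3, a quinone oxidoreductase (1.34 ± 0.36), CMBL, a hydrolase (0.69 ± 0.19), and ISCU, the scaffold of iron-sulphur cluster assembly (0.38 ± 0.11). All 3 were lost when single arrays were left out, with adjusted p-values up to 0.0834, 0.0963 and 0.0855. The arrays concerned were p53KO-labelled replicate 10 and WT-labelled replicates 7, 8 and 9 for TP53I3, the same and p53KO-labelled replicate 8 for CMBL, and p53KO-labelled replicates 8, 9 and 10 and WT-labelled replicates 7, 8 and 10 for ISCU. For 13 of the 18 called targets, the call was kept whichever of the 8 arrays was left out.

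PTP4A1, a phosphatase of the PRL group, and PLK2, a polo-like kinase, ran the other way. PTP4A1 had intensities of 143, 184, 162 and 156 in p53KO-labelled arrays, against 486, 475, 386 and 604 in WT-labelled arrays, without overlap (-1.58 ± 0.17, adjusted p = 2.58e-06 in limma). PLK2 was dim, at 12.9, 8.55, 13.4 and 7.96 in p53KO-labelled arrays, against 28.5, 26, 20.5 and 19.2 in WT-labelled arrays (-1.02 ± 0.19, adjusted p = 0.00143 in limma). Of 9 feedback regulators, MDM2 included, 1 was called higher, ZMAT3, and none lower (11.1%, against 9.16% of all genes), or 3 and 0 with the block. PPM1D (WIP1), chosen after its values were seen, read 321, 269, 319 and 401 in p53KO-labelled arrays, against 222, 197, 189 and 301 in WT-labelled arrays, with overlapping arms (0.54 ± 0.44, adjusted p = 0.608 in limma, and 0.000293 with the replicate number as a block).

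With the replicate number as a block, 25 targets were called higher and 6 lower, against 10.2% and 11.4% of all genes tested, and all genes called were 2788 (21.5%). Without replicate 10 of both labels, 18 were called higher and 3 lower, against 5.84% and 6.08% of all genes. A fit on the 14 untreated arrays alone kept 5 of the 16 higher targets, namely CDKN1A, DDB2, CYFIP2, ASTN2 and TM7SF3. A fit on the 8 arrays alone kept 10 of the 16.

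G2 and M phase genes were mostly lower in p53KO-labelled arrays. Of 42 tested, 6 were called lower and none higher (14.3%, against 9.16% of all genes), 36 of the 42 differences were negative, and their median was -0.19. Without replicate 10 of both labels the median was -0.20 and 4 were called lower, and with the block 11 were called lower and 1 higher. The mean log2 level of the 42 genes was 9.18, 9.18, 9.20 and 9.09 in p53KO-labelled arrays, against 9.40, 9.40, 9.40 and 9.28 in WT-labelled arrays, so the arms were apart by a small step.

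CDCA3, a trigger of mitotic entry whose promoter is shown above, read 306, 346, 318 and 328 in p53KO-labelled arrays, against 614, 578, 602 and 490 in WT-labelled arrays (-0.81 ± 0.10, adjusted p = 1.07e-05 in limma). UBE2C, the ubiquitin-conjugating enzyme of the anaphase-promoting complex, read 4113, 4546, 4039 and 3297 in p53KO-labelled arrays, against 5971, 5893, 6388 and 4927 in WT-labelled arrays (-0.54 ± 0.10, adjusted p = 0.000868 in limma). Neither gene had overlapping arms, and both calls held whichever of the 8 arrays was left out. CCNB1, cyclin B1, read 451, 496, 619 and 600 in p53KO-labelled arrays, against 951, 970, 985 and 1007 in WT-labelled arrays (-0.87 ± 0.24, adjusted p = 0.0298 in limma).

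The arms of CCNB1 did not overlap, but its call was lost without p53KO-labelled replicate 7 or 8 or any WT-labelled array, with an adjusted p up to 0.0931. CDCA8, a subunit of the chromosomal passenger complex (-0.38 ± 0.11), and TOP2A, topoisomerase II alpha (-0.28 ± 0.09), had overlapping arms. Both calls were lost without p53KO-labelled replicate 9 or 10 or WT-labelled replicate 7, 8 or 9, and that of TOP2A also without p53KO-labelled replicate 8, with adjusted p up to 0.119 and 0.163. Genes of the G1/S transition and DNA replication did not move with them. Of 46 tested, 2 were called higher and none lower (4.35%, against 9.16% of all genes), E2F2, an E2F transcription factor (0.59 ± 0.13, adjusted p = 0.0065 in limma), and MCM7, a subunit of the replicative helicase (0.17 ± 0.04, adjusted p = 0.00492). With the block, 10 of the 46 were called higher and 3 lower, against 10.2% and 11.4% of all genes.

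Genes that led the comparison were outside the p53 list. The 12 largest rises among called genes with arms apart were PROM1, NRIP1, CASP4, MKX, RGS2, ADGRF1, EHF, SLC1A3, DPYSL3, ODAD2, MARCKS and MPP7. The 12 largest falls were ZBED2, TM4SF18, WNT16, NEBL, DNER, SLC2A3, CAMK2D, TIMM17B, ADH5, WNT3A, SGK1 and NECTIN3. All 24 were called whichever of the 8 arrays was left out.

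PROM1, the surface antigen CD133 of progenitor cells, read 338, 302, 349 and 342 in p53KO-labelled arrays, against 6.79, 1.89, 0.502 and 1.28 in WT-labelled arrays. NRIP1, a nuclear receptor corepressor, read 212, 190, 204 and 199 in p53KO-labelled arrays, against 5.49, 5.10, 6.55 and 6.26 in WT-labelled arrays. Both were bright under one label and under the floor of 10 on every array of the other. As bounds, PROM1 was at least 33.2-fold higher (adjusted p = 5.21e-22 in limma) and NRIP1 at least 20.1-fold higher (adjusted p = 8.22e-16). Values set to the floor do not vary, so such p-values may be too small.

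CASP4, an inflammatory caspase that senses cytosolic lipopolysaccharide, read 172, 169, 163 and 466 in p53KO-labelled arrays, against 7.73, 4.42, 9.07 and 14 in WT-labelled arrays (4.32 ± 0.26, adjusted p = 9.14e-10 in limma). Only WT-labelled replicate 10 was above the floor, so this difference understates the change. MKX, the homeobox factor Mohawk of tendon, read 674, 692, 663 and 903 in p53KO-labelled arrays, against 34.2, 32.8, 32.4 and 60.6 in WT-labelled arrays (4.24 ± 0.20, adjusted p = 1.94e-11 in limma). RGS2, which speeds GTP hydrolysis by Gq, read 221, 238, 222 and 689 in p53KO-labelled arrays, against 19.9, 22.8, 19.8 and 21.4 in WT-labelled arrays (3.84 ± 0.31, adjusted p = 7.21e-08 in limma). Replicate 10 rose above the other p53KO-labelled arrays in CASP4 and RGS2, without bringing the arms closer.

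EHF, an ETS transcription factor of epithelia, was at 90.9, 91.5, 78.9 and 233 in p53KO-labelled arrays, against 0.602, 7.80, 0.384 and 0.591 in WT-labelled arrays, at least 11.1-fold higher (adjusted p = 1.3e-09 in limma). ADGRF1, an adhesion G protein-coupled receptor, differed by 3.75 ± 0.16. SLC1A3, a glutamate and aspartate transporter, had intensities of 119, 108, 110 and 79.5 in p53KO-labelled arrays, against 6.78, 8.32, 5.09 and 5.00 in WT-labelled arrays, at least 10.3-fold higher (adjusted p = 7.44e-12 in limma). DPYSL3, a cytoskeletal protein of growing neurites (3.27 ± 0.16), MARCKS, an actin-linked substrate of protein kinase C (2.76 ± 0.33), MPP7, a polarity scaffold (2.71 ± 0.09), and ODAD2, a docking protein of ciliary dynein (2.92 ± 0.26), followed.

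ZBED2, a zinc finger transcription factor, showed the largest fall. Its intensity was 294, 358, 308 and 93.8 in p53KO-labelled arrays, against 2692, 2554, 2324 and 1449 in WT-labelled arrays (-3.22 ± 0.41, adjusted p = 3.1e-05 in limma). Replicate 10 was the lowest array under both labels. CAMK2D, a calcium and calmodulin-dependent kinase, read 40.9, 37.4, 33.1 and 49.5 in p53KO-labelled arrays, against 156, 168, 164 and 231 in WT-labelled arrays (-2.16 ± 0.16, adjusted p = 1.11e-08 in limma). TIMM17B, a subunit of the mitochondrial import channel, read 29.2, 26.8, 30.2 and 22.7 in p53KO-labelled arrays, against 112, 118, 118 and 128 in WT-labelled arrays (-2.13 ± 0.09, adjusted p = 6.46e-12 in limma). The WT-labelled arrays of TIMM17B were tightly grouped, while in CAMK2D replicate 10 was above the other WT-labelled arrays.

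Both Wnt ligands among the leading genes were lower. WNT16 was at 12.3, 16.0, 11.1 and 12.7 in p53KO-labelled arrays, against 64.7, 77.2, 66.4 and 104 in WT-labelled arrays (-2.57 ± 0.12, adjusted p = 1.36e-11 in limma). WNT3A was at 18.8, 22.2, 24.1 and 30.9 in p53KO-labelled arrays, against 94.1, 83.2, 103 and 115 in WT-labelled arrays (-2.05 ± 0.29, adjusted p = 9.39e-05 in limma). SGK1, a kinase of ion transport, had 21.1, 20.0, 20.3 and 20.4 in p53KO-labelled arrays, against 80.7, 71.9, 77.3 and 101 in WT-labelled arrays (-2.01 ± 0.27, adjusted p = 4.46e-05 in limma). None of these arms overlapped.

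DNER, a Notch ligand with epidermal growth factor repeats, was under the floor on all p53KO-labelled arrays (4.02, 2.13, 6.08 and 6.26), against 49.5, 52.8, 48.6 and 56.2 in WT-labelled arrays, at least 5.17-fold lower (adjusted p = 1.72e-19 in limma). TM4SF18, a tetraspan membrane protein, was likewise at least 8.58-fold lower (adjusted p = 1.28e-07). NECTIN3, an adhesion molecule, read 274, 285, 230 and 135 in p53KO-labelled arrays, against 563, 726, 913 and 1033 in WT-labelled arrays (-1.83 ± 0.19, adjusted p = 1.82e-06 in limma). NEBL, an actin-binding nebulin relative, differed by -2.42 ± 0.24.

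The neuronal-type glucose transporter SLC2A3 read 16.2, 20.0, 21.2 and 14.6 in p53KO-labelled arrays, against 131, 128, 139 and 27.6 in WT-labelled arrays (-2.33 ± 0.41, adjusted p = 0.000775 in limma). Most of its spread came from WT-labelled replicate 10, and a fit on the 8 arrays alone did not call it. ADH5, the glutathione-dependent formaldehyde dehydrogenase, was at -20.8, -22.7, -27.2 and 15.8 in p53KO-labelled arrays, against 57.3, 45.4, 39.6 and 55.5 in WT-labelled arrays (-2.12 ± 0.21, adjusted p = 1.29e-06 in limma). In p53KO-labelled replicates 7, 8 and 9 it was the lowest of all genes on the array (rank 1), and in replicate 10 its rank from the lowest was 8835 of 17283.

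Interferon-induced and antigen presentation genes were higher as far as they were called. Of 39 tested, 7 were called higher and none lower (17.9%, against 9.16% of all genes), with a median of 0.08. HLA-E, a non-classical class I molecule read by natural killer cells, was at 440, 437, 400 and 463 in p53KO-labelled arrays, against 149, 163, 173 and 155 in WT-labelled arrays (1.44 ± 0.09, adjusted p = 6.5e-10 in limma). B2M, the light chain of class I molecules, was at 4179, 4098, 4294 and 7777 in p53KO-labelled arrays, against 2356, 2186, 2137 and 3014 in WT-labelled arrays (1.03 ± 0.16, adjusted p = 0.00032 in limma). TAP1, a subunit of the peptide transporter that loads class I (0.99 ± 0.17), IFI35 (1.72 ± 0.28) and HERC5, a ligase for ISG15 (1.28 ± 0.25), rose too, with arms apart. The mean log2 level of the list was 5.47, 5.49, 5.48 and 6.14 in p53KO-labelled arrays, against 5.30, 5.30, 5.26 and 5.64 in WT-labelled arrays, so replicate 10 stood above the others under both labels. Without replicate 10 the median was 0, and 7 members were called higher and 3 lower, and with the block 11 were called higher and 1 lower.

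Wnt target genes had the largest share of calls among lists of at least 10 members tested, 6 of 16 (37.5%, against 9.16%). Of these 5 were lower and MYC was higher, and with the block 6 were lower and 2 higher. BMP4, a ligand of the bone morphogenetic protein pathway, read 860, 842, 872 and 377 in p53KO-labelled arrays, against 1775, 1948, 2196 and 1285 in WT-labelled arrays (-1.34 ± 0.20, adjusted p = 0.000157 in limma). BAMBI, a pseudoreceptor that dampens TGF-beta signalling, read 212, 227, 216 and 178 in p53KO-labelled arrays, against 289, 302, 328 and 259 in WT-labelled arrays (-0.50 ± 0.10, adjusted p = 0.00238 in limma). MYC, the growth-promoting transcription factor, read 5270, 5497, 5478 and 3904 in p53KO-labelled arrays, against 3684, 3437, 3679 and 2574 in WT-labelled arrays (0.59 ± 0.12, adjusted p = 0.00259 in limma). The arms of all 3 were apart, and the median of the 16 differences was -0.03. DKK1 (-0.52 ± 0.15) and SOX9 (-0.51 ± 0.13), also called lower, had overlapping arms. The call of DKK1 was lost without WT-labelled replicate 7, 8 or 9 (adjusted p up to 0.112 in limma). That of SOX9 was lost without p53KO-labelled replicate 8 or 9 or WT-labelled replicate 8 or 10 (up to 0.0645).

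DUSP6, a phosphatase of ERK, was at 104, 109, 132 and 139 in p53KO-labelled arrays, against 153, 179, 213 and 207 in WT-labelled arrays (-0.64 ± 0.15, adjusted p = 0.0113 in limma). IER3, an early response gene, was at 5587, 6198, 6239 and 6412 in p53KO-labelled arrays, against 8729, 9079, 8909 and 9344 in WT-labelled arrays (-0.56 ± 0.10, adjusted p = 0.00119 in limma). Of 26 AP-1 and immediate early genes, 1 was called higher, MYC, and 3 lower, DUSP6, IER3 and DUSP4 (15.4%, against 9.16% of all genes), or 2 and 6 with the block. The call of DUSP4 was lost without any 1 of p53KO-labelled replicates 7 to 9 or WT-labelled replicates 8 and 9, with an adjusted p up to 0.0902. Of 23 hypoxia-induced genes, 2 were called higher and 2 lower (17.4%, against 9.16%), or 4 and 6 with the block. SLC2A1, the main glucose transporter, read 86.9, 91.2, 90.7 and 47.1 in p53KO-labelled arrays, against 265, 252, 233 and 120 in WT-labelled arrays (-1.45 ± 0.32, adjusted p = 0.0061 in limma). CA12, a carbonic anhydrase, was at 20.3, 22.6, 24.8 and 21.1 in p53KO-labelled arrays and under the floor on all WT-labelled arrays, at least 2.21-fold higher (adjusted p = 2.64e-08). These 2 members of the list moved in opposite directions.

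Of 16 mesenchymal and adhesion genes, 1 was called higher and 2 lower (18.8%, against 9.16% of all genes), or 1 and 4 with the block. S100A4, a motility protein, read 1976, 1847, 1746 and 7912 in p53KO-labelled arrays, against 563, 520, 587 and 1205 in WT-labelled arrays (1.98 ± 0.41, adjusted p = 0.0035 in limma). S100A10, a partner of annexin A2, read 3353, 3237, 3310 and 1884 in p53KO-labelled arrays, against 7499, 7619, 7295 and 6533 in WT-labelled arrays (-1.33 ± 0.23, adjusted p = 0.000574 in limma). In both genes replicate 10 was the most extreme p53KO-labelled array.

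NUP107, a scaffold subunit of the nuclear pore, was one of the tightest differences. It read 1079, 1056, 1053 and 859 in p53KO-labelled arrays, against 1964, 1853, 1980 and 1870 in WT-labelled arrays (-0.93 ± 0.06, adjusted p = 1.87e-09 in limma). NUP98, a gel-forming pore subunit, differed by -0.79 ± 0.18, and of 38 genes of nuclear export and import 3 were called lower and none higher (7.89%, near the 9.16% of all genes), or 9 and 0 with the block. NOLC1, a nucleolar chaperone, read 620, 669, 617 and 400 in p53KO-labelled arrays, against 219, 244, 225 and 161 in WT-labelled arrays (1.43 ± 0.22, adjusted p = 0.000179 in limma). Its list, ribosome biogenesis, had 3 of 36 called higher and none lower (8.33%, against 9.16%), or 5 and 4 with the block. Replication-dependent histone genes had 5 of 23 called lower and none higher (21.7%, against 4.79% of all genes called lower), or 8 and 0 with the block, against 11.4% called lower, led by H2BC5 (-0.95 ± 0.15) and H2BC12 (-0.57 ± 0.12). These copies are near-identical and may cross-hybridise, which was not tested.

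Among cytosolic ribosomal proteins, 6 of 42 were called higher and 3 lower (21.4%, against 9.16%), with a median of 0 to 2 decimals and differences such as 0.17 ± 0.03 for RPS16 and -0.61 ± 0.09 for RPL37. Without replicate 10, 2 were called higher and 3 lower, and with the block 10 and 7. No member was called by limma in the BCL2 family (17 tested) or among targets of YAP (17) and NF-kB (19), where 3, 3 and 1 had an unadjusted p under 0.05. With the block, 1 and 3 members of the BCL2 family were called higher and lower, as were 3 and 3 YAP targets and 1 and 0 NF-kB targets.

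**Figure D2:**
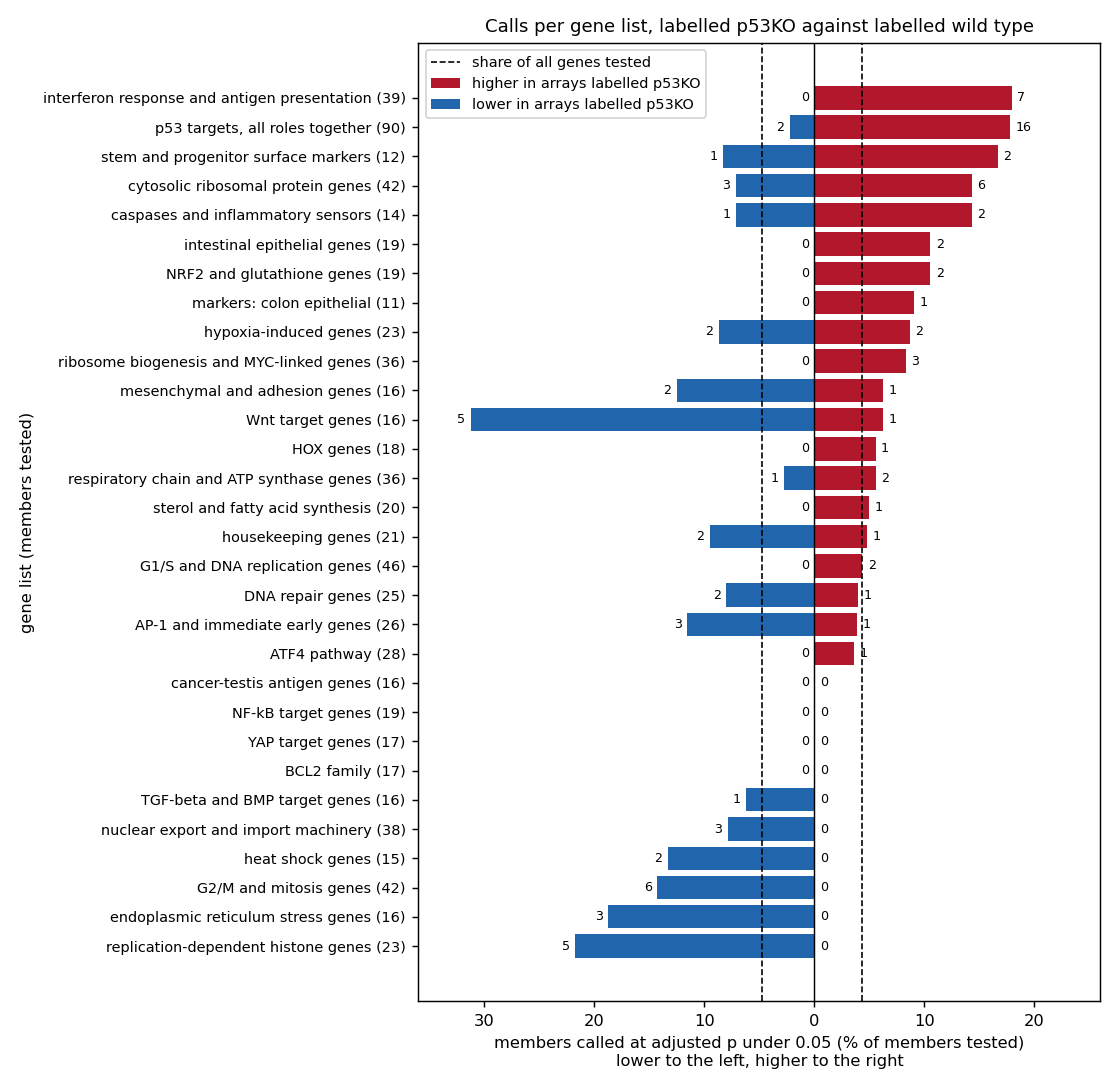
Share of members called higher (red, right) and lower (blue, left) in p53KO-labelled against WT-labelled arrays, for the 30 lists with at least 10 members tested, leaving out the p53 lists by role, with counts at the bar ends. Dashed lines mark the shares of all genes tested, 4.36% higher and 4.79% lower; p53 targets and interferon genes lead on the right, Wnt targets and histone genes on the left.

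Arrays that this comparison did not use show the same genes under the same labels. In the 2 nM arrays, on the same 2 slides, CDKN1A read 21890, 19727 and 21449 in p53KO-labelled arrays, against 1311, 1246 and 1198 in WT-labelled arrays (4.07 ± 0.37, adjusted p = 7.3e-08 in limma). In the first series, untreated, it read 1291, 3463 and 3330 in p53KO-labelled arrays, against 5212, 17672 and 17963 in WT-labelled arrays (-2.27 ± 0.37, adjusted p = 0.000324 in limma). Replicate 4 of that series, given first, was the lowest array under both labels. At 20 nM CDKN1A read 1659, 1751 and 1764 in p53KO-labelled arrays, against 16770, 17617 and 18949 in WT-labelled arrays (-3.36 ± 0.37, adjusted p = 1.16e-06 in limma). The label with the higher CDKN1A was thus p53KO in untreated and 2 nM arrays of the second series, where each label has its own slide, and WT in the first series.

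PROM1 and CASP4 followed the same split. PROM1 was at 159, 158 and 160 in p53KO-labelled 2 nM arrays, against 2.05, 0.268 and 2.52 in WT-labelled ones. In the first series, untreated, it was at -0.934, -1.88 and -0.510 in p53KO-labelled arrays, against 253, 304 and 291 in WT-labelled arrays. CASP4 was at 10.9, 15.8 and 18 in untreated p53KO-labelled arrays of the first series, against 380, 682 and 688 in WT-labelled ones. For PROM1, the WT-labelled arrays of the first series were thus near the p53KO-labelled arrays of the second. CAMK2D mirrored them, at 142, 98.5 and 107 in untreated p53KO-labelled arrays of the first series, against 29.8, 19.6 and 23.0 in WT-labelled ones.

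Of the 1186 genes called here, 666 were also called between the labels in the untreated first series, where 1927 genes were called (14.9%). The sign was opposite for 665 of the 666 and the same for 1. The untreated differences of the 2 series share no array. Each gene's estimate of spread is shared by the tests of every comparison, however, so the calls are not independent. At 20 nM, with 3115 genes called (24.1%), 667 of the 1186 were called, 625 with the opposite sign and 42 with the same. At 2 nM, with 3508 genes called (27.1%), 717 of the 1186 were called with the same sign, which is 60.5% of the calls here and 20.4% of those at 2 nM, and 37 with the opposite one. The untreated label difference itself differed between the series (second minus first) for 2716 genes (21%). For CDKN1A that difference of differences was 4.87 ± 0.49 (adjusted p = 6.26e-07 in limma) and for PROM1 it was 9.87 ± 0.08.

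**Figure D3:**
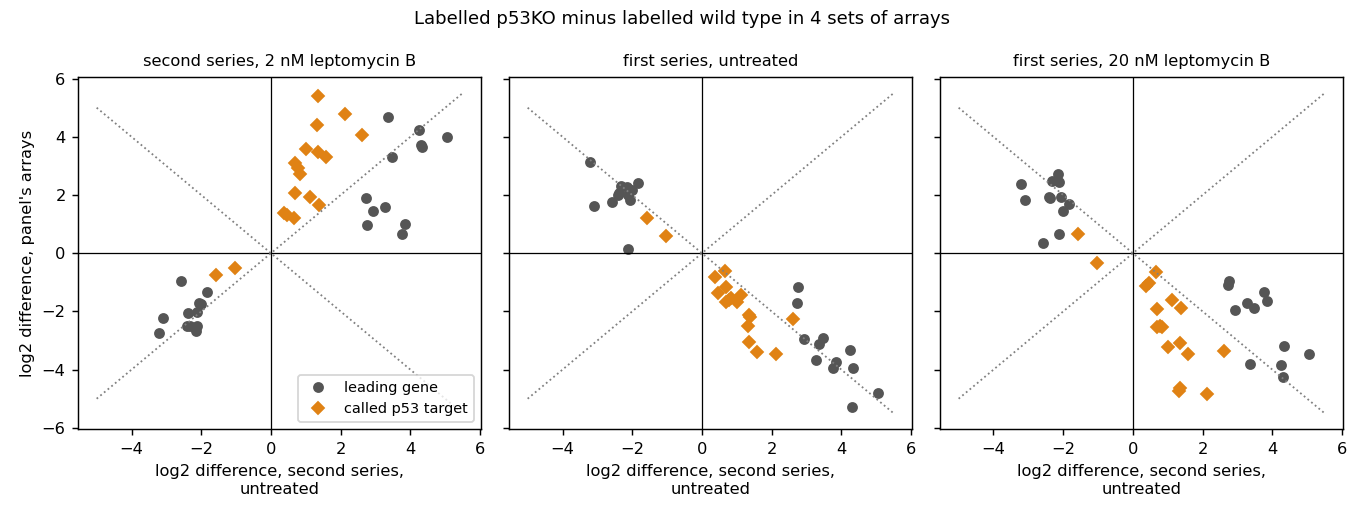
Label difference (p53KO-labelled minus WT-labelled, log2) of the 24 leading genes (grey) and the 18 called p53 targets (orange diamonds) on the 8 arrays (x axis) against the same difference in 2 nM arrays, untreated first-series arrays and 20 nM arrays (y axes); dotted lines mark equal and opposite differences. Points follow the rising line's quadrants at 2 nM and mostly the falling line's quadrants in both panels of the first series.

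p53 targets were further apart in the 2 nM arrays, where 57 of 90 were called higher and 1 lower, against 12.9% and 14.2% of all genes tested, with a median of 1.30. In the untreated first series 1 was called higher and 34 lower, against 7.08% and 7.8% of all genes tested, with a median of -0.43. MDM2 read 93.8, 92.1 and 86.2 in p53KO-labelled 2 nM arrays, against 16.1, 12.4 and 16.7 in WT-labelled ones (2.60, adjusted p = 2.23e-06 in limma), and BAX, also not called at rest, differed by 1.28 (adjusted p = 8.82e-07). G2/M genes were lower in all 42 members at 2 nM, with a median of -2.05. Among called genes some did not keep the direction at 2 nM. E2F2 was higher in untreated p53KO-labelled cells and lower at 2 nM, with 304, 283 and 316 in p53KO-labelled arrays, against 706, 698 and 685 in WT-labelled arrays (-1.21, adjusted p = 5.6e-06 in limma). SLC2A1, lower here, was at 203, 193 and 178 in p53KO-labelled 2 nM arrays, against 128, 122 and 136 in WT-labelled ones, which did not pass the test (0.58, adjusted p = 0.31 in limma). ADH5 was not called between the labels in the untreated first series (0.15, adjusted p = 0.882).

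Replicate 10 stood apart from replicates 7 to 9 under both labels. In p53KO-labelled replicates 7, 8, 9 and 10, 14, 17, 6 and 563 genes lay more than 2-fold from the mean of the other 3 arrays, against 3, 5, 23 and 338 in WT-labelled replicates 7, 8, 9 and 10. Of these, 240 genes were past 2-fold in replicate 10 of both labels, all in the same direction. Among lists, YAP targets were 0.75 lower in p53KO-labelled replicate 10 than the mean of replicates 7 to 9 and 0.82 lower in the WT-labelled one, and ribosome biogenesis genes 0.70 and 0.54 lower. Sterol and fatty acid synthesis genes were 0.27 higher in p53KO-labelled replicate 10 and 1.02 higher in the WT-labelled one. Without replicate 10 of both labels, 1544 genes were called (11.9%), 1028 of them among the 1186 with the same sign. All 24 leading genes and 15 of the 16 higher p53 targets kept their calls, with ISCU lost (adjusted p = 0.123).

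**Figure D4:**
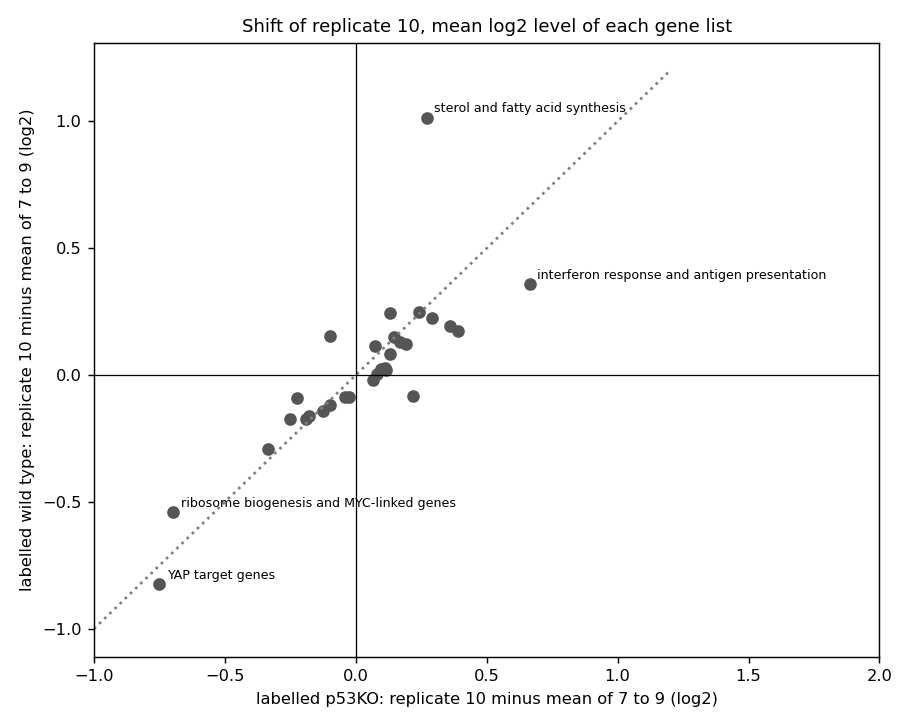
Mean log2 level of each of 30 gene lists in replicate 10 minus the mean of replicates 7 to 9, in p53KO-labelled arrays (x axis) and WT-labelled arrays (y axis), with equal shifts dotted. YAP targets lie lowest (-0.75 and -0.82), and the other lists scatter about the line, some with opposite signs such as the ATF4 pathway (-0.10 and 0.16), with sterol and fatty acid synthesis above it (0.27 and 1.02) and interferon and antigen presentation genes below it (0.66 and 0.36).

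The arrays carried the markers of an epithelial line under both labels. Over 13 colon epithelial markers, the summed intensity was 29500 to 34700 in p53KO-labelled arrays and 28900 to 34800 in WT-labelled arrays, with KRT18, KRT19, EPCAM and KRT8 the brightest. EPCAM, named after its values were seen, did not differ by the test (0.16 ± 0.09, adjusted p = 0.359 in limma), and CLDN7, a claudin of tight junctions, was called higher (0.54 ± 0.11). CDH1, the epithelial cadherin, was near the floor under both labels (4.33 to 14.7 in p53KO-labelled arrays, 9.16 to 13.1 in WT-labelled arrays), and CLDN4, CDX1, LGALS4 and VIL1 were under it on all 8. Fibroblast markers summed to 39.5 to 64.6 in p53KO-labelled arrays and 49 to 54.6 in WT-labelled arrays, with 8 of 11, among them COL1A2, COL3A1 and DCN, under the floor on all 8 arrays. For 15 blood and endothelial markers the sums were 112 to 157 in p53KO-labelled arrays and 140 to 158 in WT-labelled arrays, with 12, among them PTPRC and PECAM1, under the floor on all 8.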

How the data were processed

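Trizol extracts of HCT116 cells were amplified by Illumina TotalPrep and hybridised to 26 one-colour bead arrays, per the labels' protocols. The authors deposited linear intensities, 1 for each probe on each array. They used BeadStudio, per the submitters' processing notes. Which version, background correction and normalization were used is not given in the sources used here. In the values, 20.4% were below 0, and array percentiles lay within 2.9% of their mean over arrays. No detection p was used. Precision is limited by the number of arrays.

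Of 22177 probes, 21101 had 1 gene symbol, 0 had several and 1076 had none. Entrez identifiers matched the RefSeq gene table for 20986 probes. The probe with the highest mean stood for its gene. Intensities under 10 were set to 10 and log2 taken, so differences of dim genes are understated. Genes above the array's 40th percentile on at least 3 arrays were tested (12951). limma 3.58.1 (lmFit, eBayes) in R 4.3.3 fitted 8 cell means (label, treatment, series) to 26 arrays, with Benjamini-Hochberg adjustment over all genes tested. A bound sets the bright arm's mean of log2 values against the floor. The fit was tested on simulated data with independent noise for each gene and array. That setting lacks the shift shared by replicate 10 and the tie of slide to label, so it does not bear on them.

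Replicate numbers 7 to 10 coincide with slide positions. Deviations from the group means of same-numbered arrays correlated at 0.327, 0.472, 0.565 and 0.814. These means include replicate 10, whose shift was shared by both labels, so replicates 7 to 9 deviate together whatever their number. Different-numbered arrays among replicates 7 to 9 correlated at 0.333 to 0.536. The values therefore cannot show pairing by number, and the block is given as an alternative that assumes it. Only replicates 9 and 10 of the p53KO label and 9 and 10 of the WT label correlated best with their own number. For p53KO-labelled replicates 7 and 8, correlations with WT-labelled replicate 9 were higher (0.482 and 0.536). Pairing of replicates 7 to 9 was thus not shown. The block was also applied to treated and first-series arrays, where pairing was not examined. Where the block moves a list's count given in the text by over 1.5 times, the blocked count stands beside it.

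Genes named are CDKN1A and MDM2, the 12 largest called rises and 12 largest falls with arms apart, all called p53 targets, up to 5 called members of other lists with at least 2 calls, and 5 genes known from earlier results. The members, lists and naming rule were chosen with earlier results of these data known. Alternatives changed the floor, an offset, normalization, filters, arrays, weights, the block and the probe rule.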

Additional observations from a re-analysis of the deposited data

Results flagged for a closer look

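Replicate 10 of either label was far from replicates 7 to 9 for 40 of the 160 arms looked at (80 named genes under 2 labels), by Dixon's criterion for groups of 4 values, and no other array was. The criterion would flag about 1 in 20 independent groups of normal values. That rate does not apply here, since the genes share the same arrays. Some flagged arms also had 3 values at the floor (WT-labelled CASP4 and ODAD2, p53KO-labelled ADH5). The labels give no difference in treatment for these arrays, and the cause was not tested.

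Among p53 targets, p53KO-labelled replicate 10 was the high one for TP53INP1 (108), TP53I3 (197), ACAD11 (183) and RPS27L (5861). WT-labelled replicate 10 was the high one for CDKN1A (1016), TP53I3 (79.8), GDF15 (361) and CYFIP2 (185). Of the leading genes, p53KO-labelled replicate 10 was high for CASP4 (466), MKX (903), RGS2 (689), EHF (233), ODAD2 (143) and ADH5 (15.8), and low for ZBED2 (93.8). WT-labelled replicate 10 was high for CASP4 (14), MKX (60.6), ODAD2 (14.1) and MARCKS (136), and low for SLC2A3 (27.6).

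Antigen presentation and interferon genes were high in p53KO-labelled replicate 10 for IFI35 (114), B2M (7777) and TAP1 (723), and in WT-labelled replicate 10 for IFI35 (41.5), HERC5 (210) and TAP1 (351). Other genes high in p53KO-labelled replicate 10 were CLDN7 (1535) and S100A4 (7912), and S100A4 was high in WT-labelled replicate 10 too (1205). Low in p53KO-labelled replicate 10 were CDCA8 (415), SLC2A1 (47.1), BMP4 (377), MYC (3904), S100A10 (1884), RPS16 (20349), NOLC1 (400), NUP107 (859) and KRT18 (11233). Low in WT-labelled replicate 10 were CDCA8 (528) and SLC2A1 (120).

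The mean log2 level of the p53 target list was high in p53KO-labelled replicate 10 (6.75), that of interferon and antigen presentation genes was high in p53KO-labelled (6.14) and WT-labelled replicate 10 (5.64), and that of G2/M genes was low in WT-labelled replicate 10 (9.28).

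The untreated label difference differed between the second and the first slide series for 2716 genes, by the test of the difference itself in limma. Slide and label cannot be told apart within the second series.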

How the results depend on the processing

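Calls depended on how the spread was estimated. The 1186 genes called became 528 with only the 14 untreated arrays, 3849 with array weights and 2788 with the replicate block; the 565 higher calls became 257, 1773 and 1318, and the 621 lower calls 271, 2076 and 1470. Settings added after seeing the data gave 2287 calls (1100 higher, 1187 lower) with only replicates 7 to 9, and 3638 (1704 higher, 1934 lower) without untreated replicates 4 and 10. Replicate 4 of the first series also stood apart, and it enters the shared spread. Its array weights were 0.052 (p53KO label) and 0.071 (WT label), against 0.105 and 0.151 for replicate 10. Its correlation with replicate 5 was 0.979 and 0.985, against 0.999 between replicates 5 and 6 under both labels. The genes whose label difference differed between series, 2716, were 1402, 6228 and 4625 under the first 3 settings, and 5426 without replicates 4 and 10. For p53 targets, 16 called higher became 5, 34 and 25, then 27 with only replicates 7 to 9 and 33 without replicates 4 and 10. The 2 called lower became 9 with weights, 6 with the block, 9 with only replicates 7 to 9, 13 without replicates 4 and 10, and 1 with a floor of 32, where the list's median of 0.13 became 0. Leaving out each of the 8 arrays gave 861 to 1516 calls in all, 415 to 718 higher, 446 to 798 lower, 2302 to 3009 between series, 12 to 19 p53 targets higher and 2 to 3 lower, and a median of 0.09 to 0.13. The other settings left these results within 1.5 times. Among 106 named called genes, 71 kept their calls whichever of the 8 arrays was left out. No named called gene turned its direction under any setting run. With a floor of 32, genes dim on all arrays could not differ. The block changed calls of single genes as given in the report. Low signal limits dim genes such as MDM2 and PLK2. The causes were not tested.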

Other observations

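Calls were not gathered on a chromosome. Over 23 chromosomes, the share of tested genes called higher in p53KO-labelled arrays lay between 1.94% (chromosome 14) and 5.59% (chromosome 22), and the share called lower between 2.8% (chromosome 21) and 6.73% (chromosome 12). Among cancer-testis antigen genes (16 tested) and metallothioneins with zinc export genes (6 tested), limma called none, and none had an unadjusted p under 0.05. With the block, 1 cancer-testis gene was called higher. Of 18 HOX genes, 1 was called higher and none lower (5.56%, against 9.16% of all genes), or 2 and 0 with the block. Of 20 genes of sterol and fatty acid synthesis, 1 was called higher and none lower (5%, against 9.16% of all genes).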
